A study of Mus musculus with 2 samples.

Results

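The C1q macrophages described here were cells of the mouse lacrimal gland that carried RNA for complement component C1q. A cell was counted as one when its barcode held at least 5 UMIs (unique molecular identifiers, tags that let each captured RNA molecule be counted once) of C1qa, C1qb and C1qc together. It also had to have at least 200 detected genes and haemoglobin genes below 50% of its UMIs, the rule by which all kept cells were taken. There were 61 such cells among 628 kept cells, 56 of them from postnatal day 4 (P4) and 5 from embryonic day 16 (E16). Both stages were lacrimal glands of CD1 wild-type mice, an outbred strain, with no other allele or treatment given. Glands of a stage were dissected, pooled and dissociated with Liberase TM and DNaseI, and each stage was 1 droplet library. How many animals each pool held was not stated in the labels. The cells were chosen by their C1q UMIs, so C1q values are a description and support nothing.

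Macrophages are phagocytes that settle in tissues before birth and after it, clear dying cells and debris, and sample their surroundings through scavenger, lectin and Fc receptors. C1q is the recognition molecule of the classical complement pathway, built from chains of C1QA, C1QB and C1QC. Unlike most complement proteins, which come from the liver, C1q is made largely by macrophages and dendritic cells in tissues. The lacrimal gland secretes tear fluid, and in the newborn mouse its epithelium is still branching and beginning to secrete.

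The P4 library held 687 barcodes, of which 394 were kept, and the E16 library held 437, of which 234 were kept. The libraries shared 0 barcodes. The 56 P4 C1q cells had 176981 UMIs in all and a median of 2946 UMIs per cell (906 to 9704), against 1729653 UMIs and a median of 3818 (715 to 64020) for the other 338 kept P4 cells. With 1 library per stage there is no replicate check and no test. Levels are counts per 1000000 UMIs (CPM) of UMIs summed over a group of cells, and ratios of CPM are C1q cells over other kept P4 cells unless stated. Intervals are 95%, exact, and cover counting error only, since cells of 1 library are not replicates.

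C1q cells made up 14.2% of kept cells at P4 (exact Clopper-Pearson interval 10.9 to 18.1%) and 2.14% at E16 (0.697 to 4.92%). Each share comes from 1 preparation, and the filters and dissociation bear on both. The threshold fell in a gap. At P4 the C1q cells nearest to it had 9 and 15 C1q UMIs, while the highest other cell had 3. At E16 the lowest C1q cell had 5 and the next 12, while no other kept cell had more than 1. No barcode that the gene or haemoglobin filter left out reached 5.

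**Figure D1:**
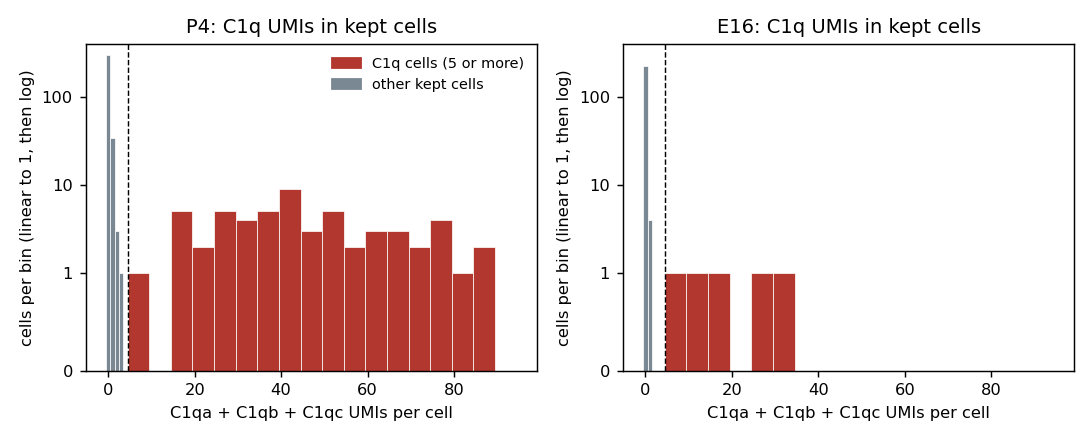
C1q UMIs (C1qa, C1qb and C1qc summed) in every kept cell of the P4 library (left) and the E16 library (right), as cells per bin on an axis that is linear to 1 and logarithmic above it. Red bars are C1q cells, grey bars other kept cells, and the dashed line is the threshold of 5 UMIs, which lies between 3 and 9 UMIs at P4 and between 1 and 5 at E16.

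All 3 chains were found together in every P4 C1q cell. C1qa had 758 UMIs (2 to 51 per cell, median 12), C1qb had 803 (1 to 56, median 13) and C1qc had 1009 (3 to 57, median 16). C1qc gave 39.3% of the C1q UMIs, C1qb 31.2% and C1qa 29.5%. Within single cells the shares ran widely, between 16.7 and 70.5% for C1qc, between 3.85 and 71.8% for C1qb and between 11.5 and 70.0% for C1qa. Summed C1q was 14361 CPM in the median cell, with a range of 1958 to 57907 CPM. Of the 338 other kept P4 cells, 38 (11.2%) had a C1q UMI, 43 UMIs in all, or 24.9 CPM. Low values are read beside this level. In P4 barcodes that had been left out, 21 C1q UMIs gave 520 CPM once haemoglobin was taken out of the totals.

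The 3 genes lie side by side on the minus strand of chromosome 4 (GENCODE M21, GRCm38, which is mm10). C1qb spans 136880129 to 136886187, C1qc 136889804 to 136893065 and C1qa 136895917 to 136898803. The promoters of C1qb and C1qc are printed because these genes chose the cells, and that of Pf4 on chromosome 5 because its level over all kept P4 cells was most like that of C1q. Each is the 250 bases before the RefSeq transcription start (GRCm38.p6), on the gene's strand. C1qb is chr4:136886201-136886450 (minus strand), C1qc chr4:136892915-136893164 (minus) and Pf4 chr5:90772185-90772434 (plus). By the GENCODE positions the C1qc window overlaps its gene, which begins at 136893065 on that strand, while the C1qb and Pf4 windows lie outside theirs. Capitals mark AGGAAGT on either strand, a form of the ETS-type motif that PU.1, a factor of myeloid cells, can bind.

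C1qb: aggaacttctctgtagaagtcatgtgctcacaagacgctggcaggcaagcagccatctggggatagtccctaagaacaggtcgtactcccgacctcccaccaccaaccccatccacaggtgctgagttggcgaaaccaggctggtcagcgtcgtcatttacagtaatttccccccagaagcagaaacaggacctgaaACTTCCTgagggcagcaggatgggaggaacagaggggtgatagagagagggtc

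C1qc: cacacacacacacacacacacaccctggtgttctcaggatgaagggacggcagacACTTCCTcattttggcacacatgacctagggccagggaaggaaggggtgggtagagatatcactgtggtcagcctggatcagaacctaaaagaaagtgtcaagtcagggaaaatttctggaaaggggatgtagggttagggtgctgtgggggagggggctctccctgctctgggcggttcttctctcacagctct

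Pf4: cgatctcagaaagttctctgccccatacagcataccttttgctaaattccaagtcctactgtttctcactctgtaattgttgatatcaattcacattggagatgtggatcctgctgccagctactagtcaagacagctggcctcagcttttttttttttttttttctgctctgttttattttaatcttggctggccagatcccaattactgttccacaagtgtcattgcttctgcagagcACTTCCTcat

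The match ended 47, 189 and 4 bases before the RefSeq start in C1qb, C1qc and Pf4. Of the 20 genes named by the rule as highest in C1q cells, 16 had a RefSeq promoter, and 11 of the 16 held AGGAAGT on either strand, against 8.80% of all 27025 genes with a promoter and 8.37% of those measured here. In all, 9 motif forms were searched on both strands, after the gene values and some of the matches had been seen, and they overlap one another. The other ETS-type forms were GGAAGT (12 of 16, against 22.2% of all genes), GAGGAA (10 of 16, 25.9%), CAGGAA (8 of 16, 28.3%) and GAGGAAGT (2 of 16, 2.79%). The MAF-type TGCTGA was in 6 of 16 (18.0%) and the AP-1-type TGANTCA in 4 of 16 (7.82%). These 4 include Cd209f and Cd209g, whose windows were 90.9% identical over paired bases, so they are not separate cases. The C/EBP-type TTGCGCAA was in 0 of 16 (0.185%) and its loose form TTNCNNAA in 8 of 16 (40.3%). A match of letters is not a binding site.

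Across the 6299 genes with at least 30 UMIs over kept P4 cells, 768 (12.2%) had a CPM at least 2-fold higher in C1q cells and 1636 (26.0%) at least 2-fold lower. The median log2 ratio of all 6299 genes was -0.30. These values are the background for every count of list members below. The filter passes a gene through either group of cells, and where 1 group had 0 UMIs of a gene its level was taken as 3 counts over the group, the floor, equal to 16.95 CPM in C1q cells and 1.73 CPM in other cells. A list member that passes only through the group where it is high had to differ, so the counts of measured members describe them and support nothing. Lists are described by their measured members, and how many of all members these were is given in the plot of gene lists.

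Macrophage identity genes were abundant in the C1q cells and low in the other kept cells. Of the 20 lineage and surface genes listed, 14 were measured, and all 14 were at least 2-fold higher in C1q cells, with a median log2 ratio of 6.11. Tyrobp and Fcer1g, the signalling adaptors of many myeloid receptors, and Lyz2, encoding lysozyme, had UMIs in all 56 cells. Tyrobp had 2452 CPM in C1q cells, against 39.3 CPM in other kept cells (ratio 62.4, 48.2 to 81.8). Outside the C1q cells, much of this RNA lay in 6 other myeloid cells, defined with the antigen presentation genes below. They held 52 of 68 Tyrobp UMIs, 46 of 78 of Fcer1g and 313 of 340 of Lyz2, genes that helped to choose them. These 3 genes are therefore not particular to C1q cells among myeloid cells. Csf1r, the receptor through which macrophages receive their survival signal, was in 50 of 56 cells, at 718 CPM against 4.63 CPM (ratio 155, 76.4 to 367). Adgre1, which encodes the F4/80 antigen, was in 33 cells (497 CPM against 3.47 CPM), and Cd68, a lysosomal glycoprotein, in 51 (1028 CPM against 8.09 CPM). Some defining genes were thinly counted. The pan-leukocyte gene Ptprc had 14 UMIs in 10 C1q cells and Itgam, the CD11b integrin chain, had 6 UMIs in 6 cells, while Mertk, an efferocytosis receptor, and Siglec1, a sialic acid lectin, had 1 UMI each. Of the 14 measured genes, 10 had fewer than 30 UMIs in other kept cells and so passed the filter through C1q cells. Over all 20 listed genes, measured or not, each had a higher CPM in C1q cells, on as little as 1 UMI for Mertk and Siglec1.

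All 8 marker genes given for the cells were at least 200-fold higher. Pf4, a platelet and macrophage chemokine, had 1081 UMIs in 51 of 56 C1q cells (0 to 95, median 17), which is 6108 CPM against 14.5 CPM in other kept cells (ratio 423, 285 to 656). Folr2, a folate receptor, was in 42 cells (0 to 67 UMIs, median 3), at 1780 CPM against 4.05 CPM (ratio 440, 211 to 1103). F13a1, the A chain of coagulation factor XIII, was in 43 cells, at 1119 CPM against 5.20 CPM (ratio 215, 111 to 477). Ms4a7, a membrane protein of macrophages, was in 44 cells, at 1170 CPM against 1.16 CPM (ratio 1012, 277 to 8408). For Folr2, F13a1 and Ms4a7 a single cell gave 21.3, 21.7 and 23.7% of the UMIs, so their sums lean on 1 cell more than Pf4 does (8.79%).

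Over all 394 kept P4 cells, the genes whose levels per cell were most like summed C1q were Pf4 (Pearson r 0.91 on log(1 + UMIs per 10000)), Tyrobp (0.88), Csf1r (0.87), Fcgr3, Lyz2, Cd68, Fcer1g, C5ar1, Apoe and Mrc1 (0.82). These coefficients describe cells of 1 library that share its depth range. The 56 C1q cells and the 338 others enter each value together. The rule that separates these groups enters every coefficient. Within the 56 cells the values were lower, at 0.42 for Pf4, 0.69 for Apoe, 0.21 for Tyrobp and 0.06 for Cd68 with summed C1q, and the chains themselves had r between 0.48 and 0.59 for the 3 pairs.

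The wider programme of tissue-resident macrophages was high across its measured members. Of 25 listed genes 18 were measured, and all 18 were at least 2-fold higher in C1q cells (median log2 ratio 7.69), but 12 of them had fewer than 30 UMIs in other kept cells. Of the 24 listed genes found in the files, 22 had a higher CPM in C1q cells and 2 had 0 UMIs in both groups. Mrc1, the mannose receptor CD206, was in 42 of 56 C1q cells and 1 of 338 others, at 684 CPM against 0.578 CPM (ratio 1183, 208 to 47089). Lyve1, a hyaluronan receptor of perivascular macrophages and lymphatic endothelium, was in 33 cells (435 CPM against 5.78 CPM), and Stab1, a scavenger receptor, in 28 (215 CPM against 2.89 CPM). Fcna, encoding the lectin ficolin A, was in 37 cells (684 CPM against 3.47 CPM), and Ccl24, an eosinophil chemoattractant, in 29 (435 CPM against 1.73 CPM). Gas6, which bridges dying cells to their receptors, had 729 CPM against 24.3 CPM and was in 44 cells. Selenoprotein P, listed as Sepp1, was in all 56, at 5017 CPM against 460 CPM (ratio 10.9, 9.91 to 12.03). Igf1, a growth factor, was in 28 cells at 249 CPM against 84.4 CPM. Some members of the list were thinly counted. The haemoglobin scavenger receptor Cd163 had 12 UMIs in 8 cells. The phosphatidylserine receptor Timd4 had 8 in 6 cells and the scavenger receptor Marco 4 in 4 cells.

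**Figure D2:**
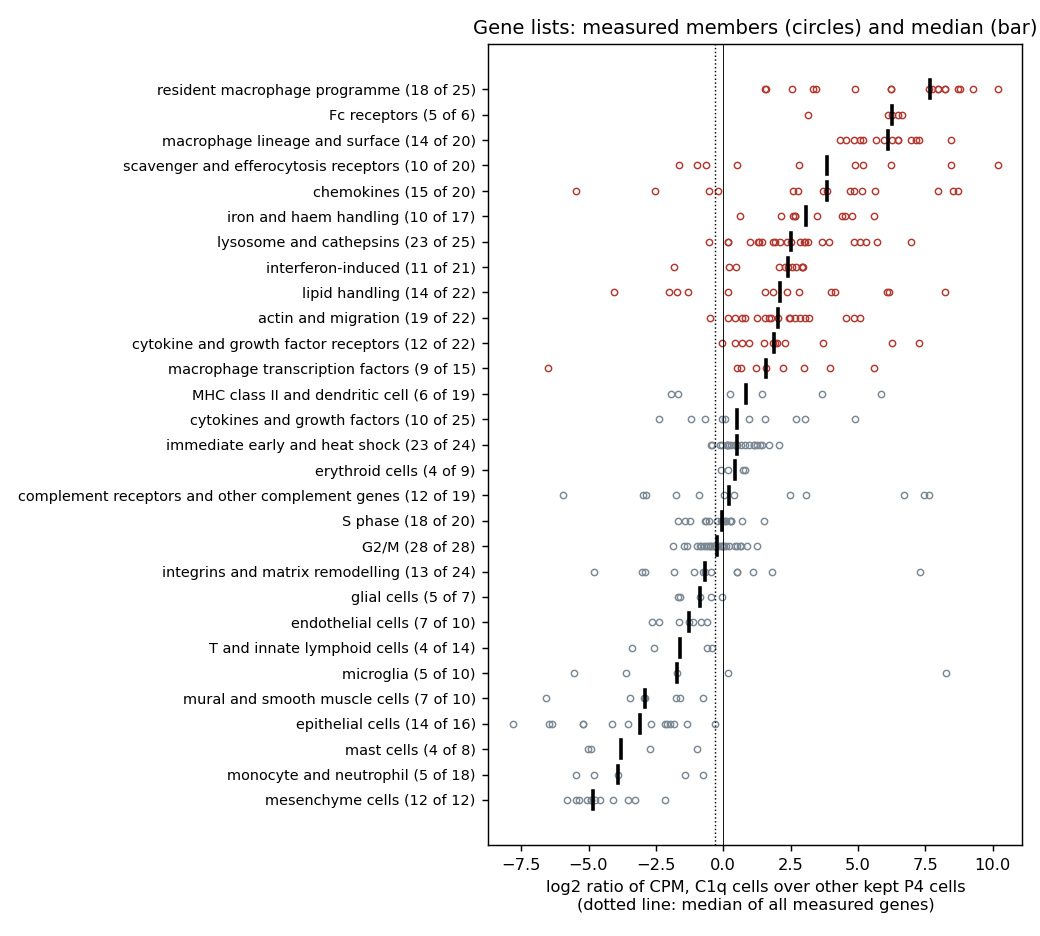
Log2 ratio of CPM, C1q cells over other kept P4 cells, for the measured members (circles) of 29 gene lists, with the list median as a bar and the number of measured members of all members in brackets. Lists with a median at least 2-fold higher are red, with resident macrophage (7.69) and Fc receptor genes (6.26) at the top and mesenchyme genes (-4.82) at the bottom. The dotted line is the median of all 6299 measured genes, -0.30.

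The Fc receptor genes, a list of chains that bind antibody and the adaptor Fcer1g, were high together. All 5 measured members of 6 were at least 2-fold higher in C1q cells (median log2 ratio 6.26, the value of Fcer1g). Of these 5, 3 had fewer than 30 UMIs in other kept cells and so passed the filter through C1q cells. Fcgr3 was in 53 of 56 C1q cells, at 1684 CPM against 16.8 CPM (ratio 100, 68.5 to 153). The high-affinity receptor Fcgr1 (209 CPM against 2.31 CPM) and the inhibitory receptor Fcgr2b (362 CPM against 5.20 CPM) were in 25 and 35 cells. Fcgrt, the neonatal Fc receptor that recycles antibody, was also widespread outside them and had a smaller ratio of 8.93 (7.70 to 10.4).

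C-type lectin and Ms4a genes formed families in which several neighbours were high, and these families were chosen after the values had been seen. The Clec4 genes had 362 UMIs in C1q cells, against 12 in other kept cells, and 4 of 4 measured members were at least 2-fold higher. Clec4n, which encodes Dectin-2, had 712 CPM against 1.73 CPM, and Clec4a1 559 CPM against 0.578 CPM, but 1 cell gave 46.5% of the Clec4a1 UMIs and 30.2% of those of Clec4n. Clec4a2 (384 CPM against 2.89 CPM) and Clec4a3 (333 CPM against 1.73 CPM) were spread more evenly. Of the Ms4a genes, Ms4a7, Ms4a6d, Ms4a6c and Ms4a6b were at least 2-fold higher, and the other measured member, Ms4a4c, had 3 UMIs in C1q cells against 36. Mgl2 and Clec10a, lectins for galactose-type sugars, were in 23 and 28 cells. Mgl2 had 44 UMIs in C1q cells and 0 in the others, a ratio of 143 at the floor of 3 counts. The lower bound of its interval was 112. The related members of such families share sequence, and how reads common to them were counted is not given, so their separate values are uncertain.

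Cd209f and Cd209g, relatives of the lectin DC-SIGN, divided the C1q cells. Cd209f had 444 UMIs, in 24 of the 56 cells, with 0 in the median cell and 53 in the highest. Of the 24 cells, 22 had more than 2 UMIs, so most positive cells were well above a single count. In the other 338 kept P4 cells 7 had a Cd209f UMI, 7 in all. Cd209g was in 17 of the 24 cells with Cd209f and in 3 of the 32 without it, and Pearson's r over the 56 cells was 0.74. The 10 cells highest for Cd209f held 79.3% of its UMIs, whereas the 10 cells highest for C1qa held 33.4% of the UMIs of C1qa. Of the other 5 Cd209 genes, Cd209b had 1 UMI in C1q cells and the others had 0.

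The promoters of these 2 neighbours on chromosome 8 are shown because the genes were counted in the same cells. Cd209f is chr8:4105765-4106014 (minus strand) and Cd209g chr8:4134486-4134735 (plus), each the 250 bases before the RefSeq start (GRCm38.p6), with TGANTCA in capitals. In GENCODE M21 Cd209f spans 4102787 to 4105835 and Cd209g 4134098 to 4137707. By that annotation the Cd209f window overlaps its gene and the Cd209g window lies wholly within its gene.

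Cd209f: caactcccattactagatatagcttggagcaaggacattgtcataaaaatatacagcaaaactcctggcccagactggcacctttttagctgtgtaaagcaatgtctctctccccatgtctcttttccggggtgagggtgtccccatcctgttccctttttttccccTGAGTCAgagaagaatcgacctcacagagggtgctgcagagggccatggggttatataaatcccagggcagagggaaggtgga

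Cd209g: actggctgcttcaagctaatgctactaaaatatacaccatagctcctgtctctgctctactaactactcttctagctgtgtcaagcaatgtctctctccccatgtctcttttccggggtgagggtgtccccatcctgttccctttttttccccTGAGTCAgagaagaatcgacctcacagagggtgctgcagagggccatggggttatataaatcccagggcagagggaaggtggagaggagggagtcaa

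Aligned end to end, 210 of 231 paired bases were identical (90.9%), and the TGAGTCA match ended 77 and 91 bases before the start of Cd209f and Cd209g. Neither window held AGGAAGT.

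Some resident-type genes, but not all, had more RNA per UMI in the 24 cells with Cd209f than in the 32 cells without it. This division was made after the values were seen, uses measured Cd209f and is a description. Median depth was 3447 UMIs in cells with Cd209f and 2933 in cells without it. Folr2 had 3105 CPM in cells with Cd209f and 690 CPM in cells without it (ratio 4.502, 3.42 to 5.99), F13a1 had 1778 and 577 CPM (ratio 3.08, 2.25 to 4.28), and Lyve1 626 and 278 CPM (ratio 2.25, 1.38 to 3.74). For Folr2 and F13a1 1 cell gave 27.0 and 30.3% of the UMIs of the cells with Cd209f, yet 23 and 24 of the 24 cells had a UMI, against 19 and 19 of the 32. The ratio was smaller for Pf4 (1.66, 1.47 to 1.88), Fcna (1.56, 1.07 to 2.28) and Mrc1 (1.51, 1.04 to 2.20), and Ms4a7 lay on the other side at 1002 and 1308 CPM, within counting error (0.766, 0.572 to 1.02). The iron exporter Slc40a1 had 1327 and 443 CPM (ratio 2.998, 2.08 to 4.38) and the monocyte attractant Ccl7 3932 and 1174 CPM (ratio 3.35, 2.70 to 4.19).

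Other genes ran the opposite way or were level. Cd74, the MHC class II invariant chain, had 175 CPM in cells with Cd209f and 885 CPM in cells without it (ratio 0.198, 0.104 to 0.351), with UMIs in 9 of 24 and 16 of 32 cells. The 3 cells highest for Cd74, all without Cd209f, held 62 of the 86 UMIs. Without these 3 cells, a step chosen after the values were seen, Cd74 had 175 CPM in cells with Cd209f and 289 CPM in cells without it, within counting error (ratio 0.607, 0.290 to 1.22). Ccl3, an inflammatory chemokine, had 150 and 669 CPM (ratio 0.225, 0.110 to 0.419), with UMIs in 5 of 24 and 17 of 32 cells. Cxcl2, a neutrophil attractant, had 2079 and 3635 CPM (ratio 0.572, 0.473 to 0.690). C1qa (ratio 1.01, 0.869 to 1.16), C1qc (0.971, 0.856 to 1.10) and Csf1r (0.929, 0.642 to 1.34) were within counting error of 1. C1qb was slightly lower in cells with Cd209f (0.793, 0.686 to 0.916).

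**Figure D3:**
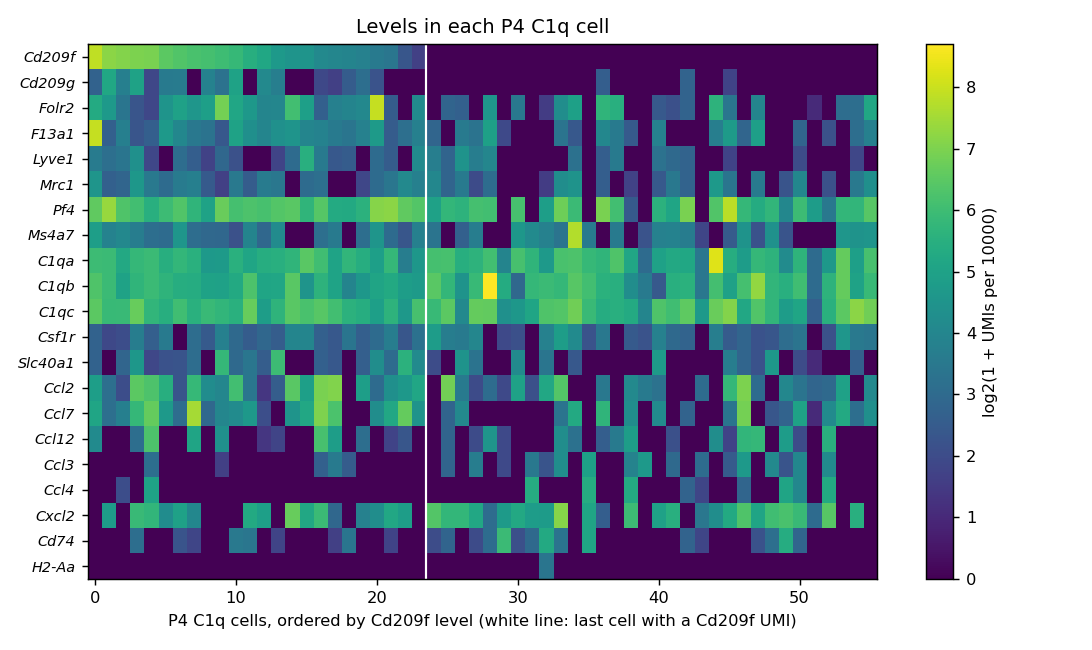
Level of 21 genes (rows), as log2(1 + UMIs per 10000), in each of the 56 P4 C1q cells (columns), ordered by Cd209f. The white line follows the 24th cell, the last with a Cd209f UMI. Cd209g lies almost wholly to its left and Ccl3 more often to its right, while the C1q rows fill both sides.

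The proteases that C1q activates were not counted in the C1q cells. C1ra and C1s1, which encode them, had 0 UMIs in C1q cells, against 98 and 232 UMIs in other kept cells. At the floor of 3 counts the ratio was 0.299 for C1ra (0 to 0.375) and 0.126 for C1s1 (0 to 0.157). Serping1, the C1 inhibitor, had 1 UMI against 608 (5.65 CPM against 352 CPM). Of these UMIs in other cells, 98, 226 and 592 lay in 184 collagen-rich cells (at least 20 UMIs of Col1a1, Col1a2, Col3a1 and Dcn together, a grouping made after the values were seen). The 184 cells held 955736 of the 1729653 UMIs of all 338 other kept cells. Every count of UMIs in collagen-rich cells is to be read beside that share. This grouping is not scaled to depth and is not mesenchyme alone. It also held 39648 of the 73710 UMIs of the secretory gene Dcpp1 in other kept cells, near its share of all UMIs.

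The receptors for complement fragments were higher in C1q cells. C5ar1, the C5a receptor, was in 46 of 56 cells, at 814 CPM against 4.05 CPM (ratio 201, 95.1 to 509), and C3ar1, the C3a receptor, in 31, at 299 CPM against 2.89 CPM (ratio 104, 41.7 to 332). Cfp, or properdin, which stabilises the alternative pathway convertase, was in 43 cells at 706 CPM against 4.05 CPM. C2, a protease of the classical pathway convertase, had 79.1 CPM against 60.1 CPM, within counting error (1.32, 0.695 to 2.31). Over the 12 measured genes of the 19 listed, 5 were at least 2-fold higher and 4 lower, and the median log2 ratio was 0.21.

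**Figure D4:**
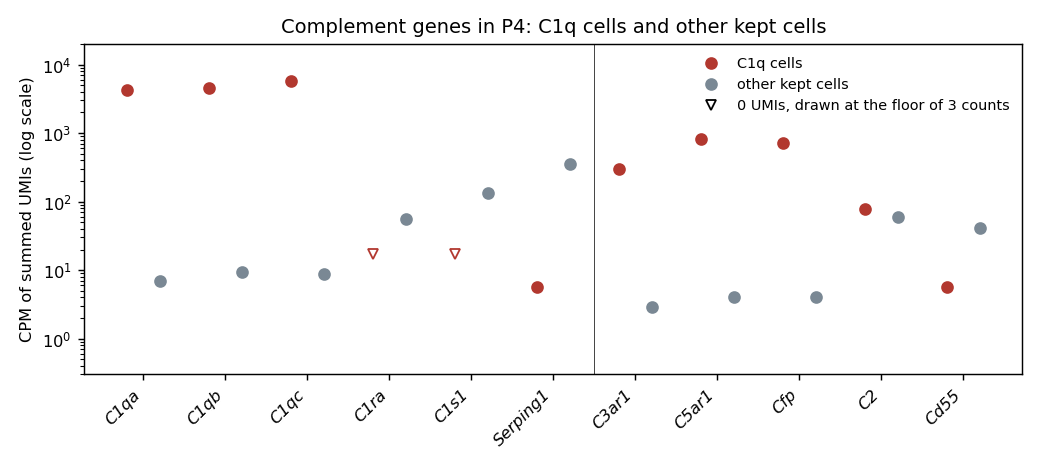
CPM of summed UMIs (log axis) for 11 complement genes in the 56 C1q cells (red) and the other 338 kept P4 cells (grey). Open triangles mark 0 UMIs and are drawn at the floor of 3 counts, 16.95 CPM for C1q cells. The C1q chains, which the rule used, are shown for scale. C1ra, C1s1 and Serping1, left of the thin line, are lower in C1q cells, and C3ar1, C5ar1 and Cfp are higher.

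Of the macrophage growth factor pathway, the receptor was counted in C1q cells and its ligands were not. Csf1r had 127 UMIs in C1q cells and 8 in other kept cells. Its ligand Csf1 had 0 UMIs in C1q cells and 47 in other cells, 44 of them in collagen-rich cells, and the second ligand, Il34, had 0 against 8. At the floor of 3 counts Csf1 was taken as 16.95 CPM in C1q cells, beside 27.2 CPM in the others. Csf1 therefore did not reach the 2-fold threshold, and Il34 was too thinly counted to compare. Other receptors that were at least 2-fold higher included Ccr1 (220 CPM against 2.89 CPM), a receptor for Ccl3-type chemokines, and Csf2ra (203 CPM against 15.6 CPM), the GM-CSF receptor alpha chain. In all, 8 of 12 measured receptors of 22 were at least 2-fold higher and 0 lower.

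Most measured chemokine genes were higher in C1q cells. The 15 measured genes of the 20 listed together gave 17849 CPM in C1q cells (3159 UMIs, 1081 of them from the marker Pf4) and 1737 CPM in other kept cells. Of these 15, 11 were at least 2-fold higher and 2 were lower, and the median log2 ratio was 3.85. Cxcl2 was in 42 of 56 cells (0 to 38 UMIs, median 8), at 2933 CPM against 59.0 CPM (ratio 49.7, 40.1 to 62.1). The monocyte attractants Ccl2 and Ccl12 were in 46 and 29 cells. Ccl2 had 2673 CPM against 206 CPM (ratio 12.9, 11.3 to 14.9), and Ccl12 1079 CPM against 2.89 CPM (ratio 373, 157 to 1163). Of the 357 Ccl2 UMIs in other cells, 311 lay in collagen-rich cells.

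The related gene Ccl7 was also counted outside C1q cells, at 2418 CPM against 398 CPM, and 657 of its 689 UMIs in other cells lay in collagen-rich cells. Ccl4 was concentrated, with 90 UMIs in 11 of 56 C1q cells and 98.9% of them in 10. The 2 lower members were Cxcl12 and Cxcl13. Cxcl12, which retains blood-forming and immune cells in tissues, had 2 UMIs against 857. Cxcl13, a B cell attractant, had 0 against 171, a ratio of 0.171 at the floor. Ccl11, the eosinophil attractant eotaxin, which is not in that list, had 0 against 407, a ratio of 0.0720 at the floor (0 to 0.0890). Within the C1q cells Ccl2 and Ccl7 varied together (r 0.57 over 56 cells), as did Ccl3 and Ccl4 (0.55). Among inflammatory cytokines, Tnf had 19 UMIs in 12 C1q cells, against 8 UMIs in the others. Tgfb1 was in 30 cells at 209 CPM against 32.4 CPM.

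Lysosomal genes were broadly higher in C1q cells. Of 25 listed, 23 were measured, 19 were at least 2-fold higher and 0 lower, with a median log2 ratio of 2.53. Ctsb, a cysteine protease, was in all 56 cells at 6656 CPM against 432 CPM (ratio 15.4, 14.0 to 16.9). Lgmn, the asparaginyl endopeptidase legumain, was also in all 56, at 3927 CPM against 98.9 CPM (ratio 39.7, 33.6 to 47.2). Ctss, a protease that processes antigen, was in 42 cells at 1136 CPM against 22.0 CPM. Of its 38 UMIs in other kept cells, 30 lay in the 6 other myeloid cells. The membrane protein Cd63 went against the list, at 1548 CPM in C1q cells and 2204 CPM in the others (ratio 0.702, 0.619 to 0.794).

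Iron and haem genes were also higher, in 9 of 10 measured members of 17 (median log2 ratio 3.08). The ferritin light chain Ftl1 alone gave 8211 UMIs, or 46395 CPM against 7242 CPM (ratio 6.41, 6.23 to 6.59), and the heavy chain Fth1 13934 CPM against 3154 CPM. Ftl1 and Fth1 also stood at 68100 and 16184 CPM in the left-out barcodes, where haemoglobin is most of the RNA, so the C1q cells lie below that level for both genes. Slc40a1, ferroportin, was in 33 cells at 842 CPM against 17.3 CPM (ratio 48.5, 32.6 to 74.5). Hmox1, which breaks down haem, was in 32 cells at 1107 CPM against 48.0 CPM, and Trf, transferrin, in 52 at 1040 CPM against 37.6 CPM.

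Lipid genes were mixed. Of 22 listed genes 14 were measured, 9 were at least 2-fold higher and 4 lower. Apoe, the lipid carrier apolipoprotein E, had 5823 UMIs in C1q cells, 17 to 280 per cell with a median of 97.5, and reached 32902 CPM against 481 CPM (ratio 68.4, 63.6 to 73.6). Enzymes of lipid mediators were included, with the leukotriene C4 synthase Ltc4s in 31 cells (350 CPM against 1.16 CPM), Alox5ap in 46 (1237 CPM against 76.9 CPM) and the prostaglandin D synthase Hpgds in 32 (249 CPM against 3.47 CPM). The fatty acid carrier Fabp4 and the lipase Lpl, which adipocyte-type and other cells express, were lower (11.3 CPM against 190 CPM, and 90.4 CPM against 366 CPM).

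Antigen presentation genes were mixed. Of 19 genes 6 were measured, 3 were at least 2-fold higher and 2 lower, and the median log2 ratio was 0.84. It was 3.14 without 6 other myeloid cells. These were kept P4 cells with fewer than 5 C1q UMIs and at least 5 of Tyrobp, Fcer1g, Lyz2 and Ctss together. They also had fewer than 5 UMIs of the mast cell genes Cpa3, Mcpt4 and Cma1 together. Cd74 had 100 UMIs in 25 of 56 C1q cells (0 to 21), or 565 CPM against 209 CPM, and H2-Aa, a class II chain, 5 UMIs in 1 cell. One of the 6 other myeloid cells held 252 UMIs of Cd74 and 147 of H2-Aa by itself. Those 6 cells had 0 UMIs of Pf4 and of Mrc1. One of them had 64020 UMIs and 24478 of the secretory gene Dcpp1, so the rule also took in a cell of epithelial type. Lyz2 was at 4628 CPM in C1q cells, against 3937 CPM in the 6 cells and 20022 CPM in 5 of them without that cell, a step chosen after the values were seen. Over the 6 cells Tyrobp, Fcer1g and Ctss had 654, 579 and 377 CPM, against 2452, 3464 and 1136 CPM in C1q cells. That cell gave 64020 of the 79503 UMIs of the 6, which lowers these CPM values. It held 1 of their 52 Tyrobp UMIs, 0 of 46 of Fcer1g and 1 of 30 of Ctss. Class I genes, in the interferon list, were higher, with H2-D1 at 4034 CPM against 512 CPM and B2m at 2899 CPM against 378 CPM. That list had 8 of 11 measured members of 21 at least 2-fold higher and 1 lower.

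Monocyte and neutrophil genes were mostly too thinly counted to read. Only 5 of 18 were measured, and all 5 had fewer than 30 UMIs in C1q cells (0 to 16) and at least 49 in the other cells, through which they passed the filter. Plac8 had 1 UMI against 437, of which 391 lay in collagen-rich cells, and Fn1, fibronectin, 0 against 810, of which 783 did. Ccr2, the receptor that brings monocytes from blood, was below the filter and ran the other way, with 11 UMIs in 5 C1q cells, or 62.2 CPM against 6.94 CPM (ratio 8.96, 3.58 to 22.2). The C1q cells with 4, 3 and 2 of these UMIs had 0 UMIs of Pf4, Folr2, Lyve1 and Mrc1. In the 6 other myeloid cells Ccr2 was at 75.5 CPM, so it is not particular to C1q cells. Of all 18 genes, 2 had a higher CPM in C1q cells, 10 a lower one and 6 had 0 UMIs in both groups.

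Microglia genes went both ways. Fcrls was in 38 cells (542 CPM against 1.73 CPM). The purinergic and related receptors were below the filter but higher in C1q cells, with 9 UMIs against 1 for P2ry12 (ratio 88.0, 12.2 to 3855), 10 against 1 for Gpr34 (ratio 97.7, 13.9 to 4241) and 5 against 0 for P2ry13. Tmem119 and Olfml3 were lower (5 UMIs against 160, and 2 against 239), but 156 and 232 of those UMIs lay in collagen-rich cells, through which both passed the filter. The median log2 ratio was -1.71 over the 5 measured genes, 0.17 over 7 with at least 10 UMIs and 2.10 over 8 with at least 1, so its sign rests on the filter.

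Among transcription factors, 6 of 9 measured of 15 were at least 2-fold higher and 1 lower. Spi1, which encodes PU.1, was in 36 cells at 390 CPM against 8.09 CPM (ratio 48.2, 26.9 to 92.7). Irf8 (136 CPM against 8.67 CPM) and Maf (203 CPM against 25.4 CPM), factors of myeloid differentiation, had fewer UMIs than Spi1 in C1q cells. Id3 was the member that was lower, with 1 UMI in C1q cells and 881 in the others.

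Cell cycle genes had medians near that of all genes. The S phase list had a median log2 ratio of -0.05 and the G2/M list -0.24, beside -0.30 for all genes. With each cell thinned to 1000 UMIs, which left out 1 C1q cell and 21 others, 5 of 55 C1q cells (9.09%, 3.02 to 20.0%) and 63 of 317 other cells (19.9%, 15.6 to 24.7%) had at least 3 G2/M genes. Before thinning the shares were 23.2% of C1q cells and 39.9% of other cells. At least 3 S phase genes were found in 8 of 55 C1q cells (14.5%, 6.50 to 26.7%) and 49 of 317 other cells (15.5%, 11.7 to 19.9%) after thinning. Before thinning the S phase shares were 28.6% of C1q cells and 50% of other cells. The G2/M share was lower in C1q cells before and after thinning. The S phase share was lower before thinning, and after it was 14.5 against 15.5%. These cells come from 1 library, so neither difference was tested, and cycling was read from no other measure. Immediate early and heat shock genes were at least 2-fold higher in 7 of 23 measured members and lower in 0 (median log2 ratio 0.51). Ier3 had the highest ratio (4.22, 3.29 to 5.37), while Fos was at 1882 CPM against 1711 CPM.

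Mesenchyme and epithelial genes were low in C1q cells. All 12 mesenchyme genes and 13 of 14 measured epithelial genes were at least 2-fold lower. The epithelial median log2 ratio was -3.11, and -4.60 without the C1q cell with the most UMIs. That cell had 9704 UMIs, with 26 of Pf4 and 0 of Csf1r and of Mrc1. The 8 lowest by the naming rule were the secretory genes Dcpp1, Dcpp2, Dcpp3, Bpifa2 and Smgc and the matrix genes Dcn, Sparc and Col1a1. Dcpp1 had 520 CPM in C1q cells, against 42616 CPM in other kept cells and 4232 CPM in left-out barcodes. One other kept cell gave 33.2% of those Dcpp1 UMIs, and with cells weighted equally its log2 ratio was -3.68 instead of -6.36. With a threshold of 3 C1q UMIs, which adds 1 cell, the log2 ratio was -3.22 instead of -5.48 for Dcn, -2.96 instead of -5.53 for Sparc and -3.55 instead of -5.34 for Col1a1. Each of the 8 was lower in C1q cells than in the left-out barcodes. Of the 10 endothelial genes 9 had 0 UMIs in C1q cells, as did all 7 glial genes, of which 2 of 5 measured were at least 2-fold lower at the floor. Of 4 measured T and innate lymphoid genes 2 were at least 2-fold lower. The 4 measured erythroid genes were level, together at 2147 CPM in C1q cells and 2124 CPM in the others, with 0 of them past 2-fold. Summed B cell genes reached 10598 CPM in 1 C1q cell, where Cd79b had 28 of its 35 UMIs, while Cd79a, Ms4a1 and Ebf1 had 0 in all 56. That was the 1 C1q cell marked as mixed, and Scrublet marked 0 C1q cells among 3 doublets called in each library. A P4 C1q cell was marked when summed genes of another cell class exceeded 5000 CPM and 10 times their level in left-out barcodes. That level was 13882 CPM for epithelial and 12274 CPM for mesenchyme genes, beside 104705 and 24774 CPM in other kept cells. Mixtures with these classes could therefore hardly be marked. The highest values in a C1q cell were 12057 CPM of epithelial and 2909 CPM of mesenchyme genes.

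A few genes were counted mostly in 1 cell. Of 586 genes with at least 50 UMIs in C1q cells, 36 (6.14%) had over 50% of them in 1 cell. S100a11 had 58 of 78 UMIs in 1 cell and Ttc7 50 of 56. Spp1, or osteopontin, had 45 of 48, so its ratio says little about the other 55 cells. The cause was not tested.

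The 5 E16 C1q cells had 22665 UMIs in all, so the floor of 3 counts is 132 CPM. Their C1q UMIs were 30, 26, 19, 12 and 5, and C1qa was in 3 of them. All 5 had Lyz2 (10 to 46 UMIs), Apoe (89 to 184), Fcer1g, Tyrobp, Adgre1, C5ar1 and F13a1 (2 to 7). Other macrophage genes were in fewer of them. Csf1r had 4 UMIs, all in the cell with 19 C1q UMIs, Cd68 had 19 UMIs in 3 cells and Lyve1 3 UMIs in 1 cell. F13a1 was at 1119 CPM in P4 C1q cells and 927 CPM in E16 C1q cells (ratio of P4 over E16 1.21, 0.768 to 1.99), Mrc1 at 684 and 662 CPM (1.03, 0.602 to 1.90), where 14 of its 15 E16 UMIs lay in 2 of the 5 cells, and C5ar1 at 814 and 750 CPM (1.08, 0.654 to 1.91), each within counting error.

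Several genes differed between the stages beyond counting error, though each stage is 1 library, so stage and library cannot be told apart, and the E16 values rest on 5 cells. Over 1085 genes with at least 30 UMIs in both groups of C1q cells together, the median log2 ratio (P4 over E16) came to 0.16. Cd209f had 444 UMIs in 24 of 56 P4 cells and 0 in 5 E16 cells. The ratio was 19.0 at the floor of 3 counts over the E16 cells, with a lower interval bound of 15.4. Folr2 was at 1780 CPM in P4 cells and 44.1 CPM (1 UMI) in E16 cells (ratio 40.3, 7.19 to 1598), and Ccl12 had 191 UMIs in P4 cells and 0 in E16 cells. Ccl7 was at 2418 and 132 CPM (ratio 18.3, 6.21 to 88.9), and among other kept cells it was also higher at P4 (398 and 56.2 CPM). Pf4 was at 6108 CPM in P4 cells and 1235 CPM in E16 cells, where 2 of 5 cells held it.

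Other genes were lower at P4. Plac8, a gene of monocytes and progenitors, had 1 UMI in the 56 P4 cells and 21 UMIs in 4 of the 5 E16 cells (5.65 and 927 CPM, ratio 0.00610, 0.000147 to 0.0379). Outside the C1q cells the difference had the other sign, at 253 CPM at P4 and 74.0 CPM at E16. Atf3 was at 249 CPM in P4 cells and 1544 CPM in E16 cells (ratio 0.161, 0.101 to 0.259), with 17 of 35 E16 UMIs in 1 cell. Fcgr1 was at 209 and 1235 CPM, but 20 of its 28 E16 UMIs lay in the cell with the fewest C1q UMIs. That cell also held all 25 E16 Cd74 UMIs and 8 of Plac8.

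**Figure D5:**
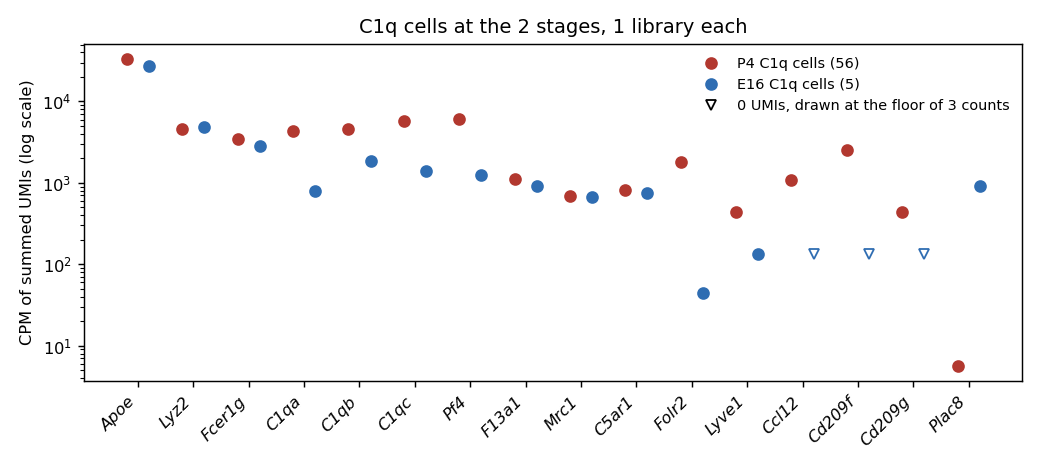
CPM of summed UMIs (log axis) for 16 genes in P4 C1q cells (red, 56 cells) and E16 C1q cells (blue, 5 cells), with 1 library per stage. Open triangles are 0 UMIs in the E16 cells, drawn at the floor of 3 counts, 132 CPM. Apoe, Lyz2, Mrc1, F13a1 and C5ar1 lie close together, Cd209f, Folr2 and Ccl12 are higher at P4, and Plac8 is lower at P4.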

How the data were processed

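RNA of single cells was measured in 2 libraries, P4 and E16. The deposited matrices give raw UMI counts, not normalized by the authors. Cell Ranger and mm10 were used, per the submitters' processing notes. The version, annotation, settings and choice of barcodes are not stated there. For barcoding, the title gives 10x, whereas the labels' protocol gives Drop-seq. Members and lists were chosen with earlier results of these data known.

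UMIs were summed over cells and divided by the group total. Ratios have exact conditional intervals and shares exact Clopper-Pearson ones, computed with Python 3.11.15, numpy 2.4.6 and scipy 1.17.1 and checked on simulated data. Scrublet was run in scanpy 1.11.5. Free RNA was read from left-out barcodes without haemoglobin. Named genes were the 8 markers, the 20 highest by the lower interval bound with a UMI in at least 20% of C1q cells, the 8 lowest by the upper bound, and list members; mitochondrial, ribosomal, haemoglobin, sex-specific and provisional genes were left out. A few list members count in their lists but are not reported here. Genes of the promoter search, the families, the division by Cd209f and the stage comparison were chosen after values were seen. GENCODE M21 positions matched 86 of 86 genes by identifier. PCR and pooling add error that counting intervals do not cover.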

Additional observations from a re-analysis of the deposited data

Results flagged for a closer look

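The P4 barcodes left out of all comparisons, nearly all with few genes and mostly haemoglobin, held 21 C1q UMIs in 20 of 293 barcodes. No barcode had more than 2. With haemoglobin out of the totals this is 520 CPM, beside 24.9 CPM in the other kept P4 cells and 14552 CPM in the C1q cells. In the E16 barcodes left out there was 1 C1q UMI. The result is listed because it lies in data that no comparison used. Its source was not tested.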

How the results depend on the processing

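The number of C1q cells was 55 to 57 at P4 in the 4 alternatives that recount them and 4 to 5 at E16 in 3. The filter on low counts moved the counts of genes most. With at least 10 UMIs, 2068 genes were at least 2-fold higher, with at least 1 UMI 4138, and with at least 100 UMIs 296 were higher and 770 were lower. With at least 30 UMIs these counts had been 768 and 1636. Among the 2068 and 4138, 554 and 1948 genes had 0 UMIs in C1q cells and were called higher through the floor alone. Without them, an alternative chosen after seeing the data, 1514 and 2190 were higher, and the counts with at least 30 and at least 100 UMIs were 768 and 296 as before. The share higher was then 15.4% and 14.7%, beside 12.2%. The median log2 ratio of the microglia list, -1.71, was 0.17 with at least 10 UMIs and 2.10 with at least 1, over 7 and 8 members instead of 5. Of 369 list medians, 321 moved by less than the spread allowed, 46 moved further and 2 reversed, and of 252 log2 ratios of named genes 227 and 25 did so with 0 reversed. The log2 ratio of Lyz2, C1q cells over other myeloid cells, was 0.23 and turned to -2.11 without the other myeloid cell with the most UMIs, and that of Cd74, cells with over without Cd209f, was -2.34 and -0.72 without the 3 cells highest for Cd74, both chosen after seeing the data. The class II list median was 3.14 without the other myeloid cells, 2.78 with the highest cell of each gene set aside (an alternative chosen after seeing the data), -0.08 with cells weighted equally and -1.67 with at least 100 UMIs. Leaving out the 20 most abundant genes from the totals moved the median of all genes by -0.10, and weighting cells equally by -0.17. Genes with few UMIs in the other cells have intervals spanning more than a factor of 10. No paired analysis was possible because each stage is 1 library.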
